A study of Arabidopsis thaliana with 9 samples.

Results

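9 nuclear genes of Arabidopsis thaliana that serve protein synthesis inside mitochondria were followed across the 9 libraries of a seedling RNA-seq study, and are described here gene by gene. They were picked by locus from 33557 loci in the deposited expression tables for their place in this machinery, by a rule that uses no measured value, although earlier results of these data were known. They are MRPL1 (AT2G42710), MRPL11 (AT4G35490), AT1G07830, HLL (AT1G17560), NFD1 (AT4G30930), NFD3 (AT1G31817), RPS9M (AT3G49080), RPS10 (AT3G22300) and the gene of mitochondrial elongation factor EF-Tu (AT4G02930). All 9 of the 9 loci stood in both deposited tables, and all 9 passed the filter on low values, a mean level of 1 FPKM or more. FPKM are fragments per kilobase of transcript scaled to the library's mapped total.

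3 groups of Col-0 seedlings were compared, with 3 libraries each. The DOX group was wild type given liquid half-strength MS medium with 25 µg/ml doxycycline for 12 h, after 14 days on solid medium. The mrpl1-1 group carried the mrpl1-1 mutation and received the same liquid without the drug, and the WT group was wild type given that drug-free liquid. Every group was therefore flooded with liquid for the same time, and the RNA came from whole seedlings and was enriched for polyA transcripts. The labels do not say what the mrpl1-1 lesion is or where in the gene it lies. A single mutant line stands for the genotype. The design text calls the replicates biological, without saying which plants or plates they came from.

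Mitochondria make a few of their own proteins, mainly subunits of the respiratory chain, on ribosomes that resemble those of bacteria. In plants most proteins of these ribosomes are encoded in the nucleus, translated in the cytosol and imported. Doxycycline is a tetracycline, which binds the small subunit of bacterial-type ribosomes and blocks the entry of aminoacyl-tRNA, and so it can act on ribosomes of mitochondria and of plastids alike.

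Positions and protein families are those of the RefSeq annotation of TAIR10.1. MRPL1 encodes a protein of the L1 family, which in bacteria forms the mobile stalk beside the exit site for tRNA. It lies on chromosome 2 at 17782308 to 17785090 on the plus strand, with 10 exons and a transcript of 1552 nt. MRPL11 encodes the L11 protein, which in bacteria sits at the base of the stalk that calls in elongation factors. It lies on chromosome 4 at 16855825 to 16856936 on the plus strand. AT1G07830 on chromosome 1 (2422126 to 2423803, plus strand) is annotated as an L29 family protein, a protein that in bacteria lines the exit of the peptide tunnel. The working list of these genes uses the name HES at this locus, but the annotation gives it no such symbol, so it is named by locus here. That name may be meant for AT1G08845, an L18p/L5e family gene described with the wider large-subunit list, to which the annotation gives no symbol either. HLL (HUELLENLOS, chromosome 1, 6037405 to 6038698, minus strand) encodes an L14 protein, and its loss is known to impair ovule growth. NFD1 (chromosome 4, 15049811 to 15051751, minus strand) encodes an L21 protein. It is known, like NFD3, from a screen for female gametophytes whose polar nuclei do not fuse.

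The small subunit was represented by NFD3, RPS9M and RPS10. NFD3 (chromosome 1, 11414695 to 11416444, minus strand) is known as an S11 protein, although the annotation names only its wider family, L18p/L5e. RPS9M (chromosome 3, 18194154 to 18196784, minus strand) encodes an S9 protein. Its annotated span overlaps AT3G49100 on the other strand by 477 bp, and whether the counting used strand is not stated, so reads of the overlap could belong to either gene. RPS10 (chromosome 3, 7885637 to 7886876, plus strand) encodes the S10 protein. EF-Tu (chromosome 4, 1295375 to 1298500, minus strand, 12 exons, 1887 nt), a GTPase, carries aminoacyl-tRNA to the ribosome, the step that tetracyclines block.

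Upstream sequence was read from TAIR10.1, 250 bases before each annotated start, and searched on both strands for site II elements, the letters TGGGCC or TGGGCT, known from plant genes of organelle and cytosolic ribosomes. Site II stood in 3 of the 9 genes, or 33.3%, against 19.2% of all 27443 nuclear protein-coding genes and 22.6% of the 18425 of these that averaged 1 FPKM or more. In the lists of like genes followed below, it stood in 43.2% of 37 large-subunit and 47.1% of 17 small-subunit genes of mitochondria. It stood in 25.0% of 8 mitochondrial translation factors and 38.9% of 36 plastid translation genes. NFD3 held 3 sites, EF-Tu 2 sites and HLL 1 site, while MRPL1, MRPL11, AT1G07830, NFD1, RPS9M and RPS10 held none in this window. In 7 of the 9 genes the window runs into a neighbouring gene, a tRNA gene for HLL and a protein-coding gene for MRPL1, AT1G07830, NFD1, NFD3, RPS9M and RPS10. The windows of MRPL11 and EF-Tu do not. The 80-base stretch that holds the HLL site overlaps that tRNA gene, a tRNA-Ser. The stretch that holds the NFD3 sites overlaps AT1G31820, an amino acid permease family gene. The sites of HLL and NFD3 may thus lie in the neighbouring gene, and the share above counts them all the same. An 80-base stretch near the start is shown for EF-Tu, the gene with the clearest separation of DOX and WT libraries, and for MRPL1, the gene the mutant is named for. The EF-Tu stretch was placed to hold its 2 sites and covers bases 82 to 3 before the start. The MRPL1 stretch holds no site and is the last before the start, bases 80 to 1. Capitals mark site II, which here reads in reverse complement as AGCCCA and GGCCCA. The EF-Tu stretch is chr4:1298503-1298582 on the minus strand, and the MRPL1 stretch is chr2:17782228-17782307 on the plus strand.
EF-Tu: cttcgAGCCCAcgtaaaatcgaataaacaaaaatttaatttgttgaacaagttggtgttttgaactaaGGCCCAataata
MRPL1: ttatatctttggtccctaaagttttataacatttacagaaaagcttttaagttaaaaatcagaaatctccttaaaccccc
A match is a description of letters, and no match says only that they are not in this window.

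The tables hold no read counts. Low values fell on steps of the value of 1 read, from which depth was estimated at 5.58 to 7.34 M reads on genes in the DOX libraries, 3.45 to 7.84 M in the mrpl1-1 libraries and 3.30 to 8.58 M in the WT libraries. At these depths the 9 genes rested on an estimated 39 to 1156 reads each per library, with HLL the thinnest and EF-Tu the deepest. A pair of libraries stood apart in a principal component analysis of all genes. The mrpl1-1 replicate 2 library led the first component (23.9% of variance), and WT replicate 3, the shallowest library, led the second (20.1%). In mrpl1-1 replicate 2, a gene's deviation from its mean over libraries fell with transcript length (Spearman rho -0.35 over 18918 genes), and in the DOX libraries it increased with length (rho 0.16 to 0.27), against -0.03 to 0.06 in the other 5. The seedling label matched its markers: 5 leaf and photosynthesis genes summed to 19698 to 21424 FPKM in DOX, 19232 to 41335 FPKM in mrpl1-1 and 20762 to 21535 FPKM in WT, and 3 of 4 seed storage genes were listed at 0 in every library. In mrpl1-1 replicate 2 the leaf genes RBCS1A and AT1G29930 (LHCB1) had their highest values, 18418 and 19034 FPKM. RCA had its lowest value there, 1423 FPKM, so the leaf genes did not move alike. The 6 root markers summed to 56.5 to 69.9 FPKM in DOX, 140 to 252 FPKM in mrpl1-1 and 129 to 141 FPKM in WT. This sum does not stand for all 6 alike. RHS13, the largest in WT, averaged 18.7 FPKM in DOX and 61.5 FPKM in WT. Every DOX library lay below every WT library for RHS13, EXPA18, LRX1 and EXPA7. The groups overlapped for CASP1 (means of 21.5 FPKM in DOX and 25.9 FPKM in WT) and PER64 (7.7 FPKM in DOX and 11.3 FPKM in WT). The 5 markers of dividing cells summed to 22.2 to 30.5 FPKM in DOX, 31.8 to 33.5 FPKM in mrpl1-1 and 26.0 to 27.9 FPKM in WT. These did not move alike either. KNOLLE, the largest, averaged 15.8 FPKM in DOX, 20.6 FPKM in mrpl1-1 and 16.1 FPKM in WT, and its mutant libraries lay above WT. CYCB1;1, CYCB1;4 and CDKB1;1 overlapped between mutant and WT. With the drug CYCB1;1 was higher without overlap (2.9 FPKM against 2.3 FPKM in WT). CDKB1;1 averaged 2.6 FPKM in DOX and 4.0 FPKM in WT and overlapped, as did KNOLLE and CYCB1;4. CYCA2;1 averaged below 1 FPKM in every group. The part of root and dividing-cell RNA in any value below was not tested, and fewer cells of a type cannot be told apart from less RNA per cell.

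The mRNA of MRPL1 passed the test neither in the mutant nor with the drug, and its level in the mutant overlapped that in wild type. MRPL1 had 22.7, 22.1 and 22.3 FPKM in the DOX libraries, 20.8, 12.8 and 19.8 FPKM in the mrpl1-1 libraries, and 20.7, 19.1 and 26.7 FPKM in the WT libraries. The DOX values lay close together inside the WT range. The lowest mutant value and the highest WT value came from the libraries that stood apart, and the other mutant libraries lay within the WT range. Mean levels were 17.8 ± 4.35 FPKM in mrpl1-1 and 22.1 ± 3.99 FPKM in WT (SD, n = 3 each). The log2 fold change of mrpl1-1 over WT was -0.31 (SE 0.23, 95% interval -0.83 to 0.20, limma adjusted p = 0.931). Without mrpl1-1 replicate 2 and WT replicate 3 it was 0.03 (SE 0.14, limma adjusted p = 0.987), with means of 20.3 FPKM in mrpl1-1 and 19.9 FPKM in WT (n = 2 each). Gene-level FPKM does not show whether the transcript of the mutant allele is intact, so this level is no check of the genotype. With doxycycline the log2 fold change over WT was 0.03 (SE 0.14, 95% interval -0.30 to 0.36, limma adjusted p = 0.964).

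Set against the other genes in the same library, a ratio that does not depend on library scaling, MRPL1 also overlapped between groups. The log2 ratio of MRPL1 to the geometric mean of the other 8 genes was -0.51, -0.61 and -0.51 in DOX, -0.60, -1.66 and -0.82 in mrpl1-1, and -0.44, -0.77 and -0.28 in WT. The mrpl1-1 values reached lowest, with replicate 2 far below the others, and the groups overlapped. The mean difference of DOX from WT was -0.04 (exact two-sided permutation test, p = 0.8) and that of mrpl1-1 from WT was -0.53 (exact two-sided permutation test, p = 0.2), where 3 libraries against 3 cannot give a p below 0.1. Against the median of the other 8 genes the groups also overlapped (difference of mrpl1-1 from WT -0.52, exact two-sided permutation test, p = 0.3). Against the other 4 large-subunit genes alone, the mrpl1-1 ratio lay below WT in all 3 libraries (difference -0.66, exact two-sided permutation test, p = 0.1, the smallest possible). Its values were -0.81, -1.92 and -0.86 in mrpl1-1 and -0.40, -0.78 and -0.43 in WT, so the nearest pair differed little. Among single genes, groups without overlap made up 10.1% in this comparison, and the share over such ratios was not computed. Without mrpl1-1 replicate 2 the difference was -0.30 for the ratio to the 4 large-subunit genes and -0.21 for the ratio to all 8 genes. None of these ratios removes the length trend of that library. In it, genes as long as MRPL1 deviated from their mean over libraries by a median of 0.08 on the log2 scale. The median was 0.25 at the length of MRPL11, 0.18 at that of AT1G07830 and 0.04 at that of EF-Tu. The part of this trend in the ratios was not tested.

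**Figure D1:**
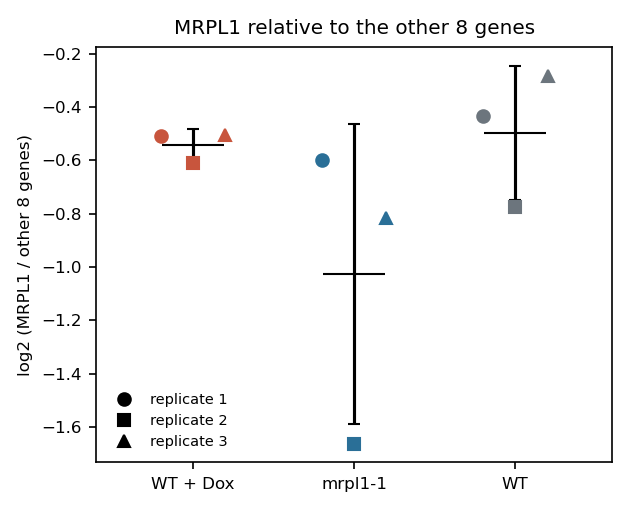
The vertical axis is the log2 ratio of MRPL1 FPKM to the geometric mean of the other 8 genes in the same library, and the horizontal axis is the group, with DOX written as WT + Dox. Points are libraries, lines are means and bars are SD (n = 3); mrpl1-1 replicate 2 lies at -1.66, below every other library.

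Among the other large-subunit genes, MRPL11, AT1G07830 and NFD1 were highest and HLL was lowest in mrpl1-1 replicate 2, and none of the 4 passed the test. MRPL11 had 137, 129 and 134 FPKM in DOX, 183, 237 and 107 FPKM in mrpl1-1, and 131, 139 and 132 FPKM in WT. The DOX and WT libraries lay within a narrow band, while the mutant libraries fell on either side of it. The log2 fold change was -0.01 (SE 0.09, 95% interval -0.22 to 0.21, limma adjusted p = 0.984) for DOX over WT, and 0.32 (SE 0.28, limma adjusted p = 0.931) for mrpl1-1 over WT. The mutant value was 0.06 without mrpl1-1 replicate 2 and 0.63 without mrpl1-1 replicate 3.

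AT1G07830, the L29 family gene, had 27.2, 34.8 and 34.8 FPKM in DOX, 40.8, 103 and 46.9 FPKM in mrpl1-1, and 23.6, 38.5 and 41.6 FPKM in WT. Its mutant values were the highest 3 but for WT replicate 3, which lay just above the lowest of them. The log2 fold change of mrpl1-1 over WT was 0.78 (SE 0.36, 95% interval -0.04 to 1.59), with an unadjusted p of 0.0608 and a limma adjusted p of 0.931. Genes of similar transcript length had a median of 0.04 in that comparison. In mrpl1-1 replicate 2 alone, AT1G07830 deviated from its mean over libraries by 1.35 on the log2 scale, against a median of 0.18 for genes of similar length. Without that library and WT replicate 3, the means were 43.9 FPKM in mrpl1-1 and 31.0 FPKM in WT (n = 2 each). For DOX over WT, AT1G07830 gave a log2 fold change of -0.06 (SE 0.22, limma adjusted p = 0.948).

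HLL had 15.0, 12.8 and 13.0 FPKM in DOX, 13.9, 9.77 and 19.2 FPKM in mrpl1-1, and 11.6, 13.1 and 17.1 FPKM in WT. NFD1 had 16.9, 18.6 and 14.8 FPKM in DOX, 16.9, 23.4 and 17.3 FPKM in mrpl1-1, and 15.2, 16.3 and 17.8 FPKM in WT. Both genes overlapped in all groups. For HLL the log2 fold changes were -0.02 for DOX over WT and 0.00 for mrpl1-1 over WT, and for NFD1 they were 0.02 and 0.20. Without mrpl1-1 replicate 2 and WT replicate 3, HLL averaged 16.6 FPKM in mrpl1-1 and 12.4 FPKM in WT (n = 2 each), a log2 fold change of 0.38 (limma adjusted p = 0.92). The 95% interval for HLL in mrpl1-1 over WT ran from -0.59 to 0.59, so a change of that size in either direction could not be told apart from none at this spread.

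The small-subunit genes did not pass the test either. NFD3 had 25.4, 27.9 and 26.0 FPKM in DOX, 20.2, 34.3 and 28.2 FPKM in mrpl1-1, and 22.3, 26.6 and 32.3 FPKM in WT. RPS9M had 18.1, 20.1 and 15.9 FPKM in DOX, 11.6, 13.9 and 17.7 FPKM in mrpl1-1, and 14.4, 18.6 and 15.5 FPKM in WT. RPS10 had 32.9, 31.2 and 29.8 FPKM in DOX, 31.0, 30.4 and 31.3 FPKM in mrpl1-1, and 30.7, 32.8 and 17.9 FPKM in WT. The DOX and mrpl1-1 libraries of RPS10 lay in a narrow band together with the first pair of WT libraries, and only WT replicate 3 lay far below it. Log2 fold changes of DOX over WT were -0.02 for NFD3, 0.15 for RPS9M and 0.24 for RPS10, and those of mrpl1-1 over WT were 0.01, -0.17 and 0.23 in the same order. The lowest limma adjusted p among these was 0.777, for RPS10 with the drug. Without WT replicate 3 the RPS10 value with the drug turned to -0.02.

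EF-Tu was the gene whose DOX and WT libraries did not overlap. It had 83.5, 89.0 and 91.5 FPKM in DOX, 75.7, 89.7 and 81.9 FPKM in mrpl1-1, and 69.1, 68.8 and 81.3 FPKM in WT. Every DOX library lay above every WT library, the nearest pair by a small margin, and the mutant libraries overlapped both groups. Mean levels were 88.0 ± 4.08 FPKM in DOX and 73.1 ± 7.14 FPKM in WT (SD, n = 3 each). The log2 fold change was 0.27 (SE 0.11, 95% interval 0.01 to 0.52), higher in 3 of 3 DOX libraries, with an unadjusted p of 0.0408 and a limma adjusted p of 0.569, so it did not pass the correction over 19073 genes. Non-overlap in either direction was met by 16.0% of all genes in this comparison, and non-overlap with DOX higher by 8.51%, against 1 of the 9 here. Genes of similar transcript length had a median log2 fold change of 0.02. For mrpl1-1 over WT the EF-Tu value was 0.17 (SE 0.17, limma adjusted p = 0.931).

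**Figure D2:**
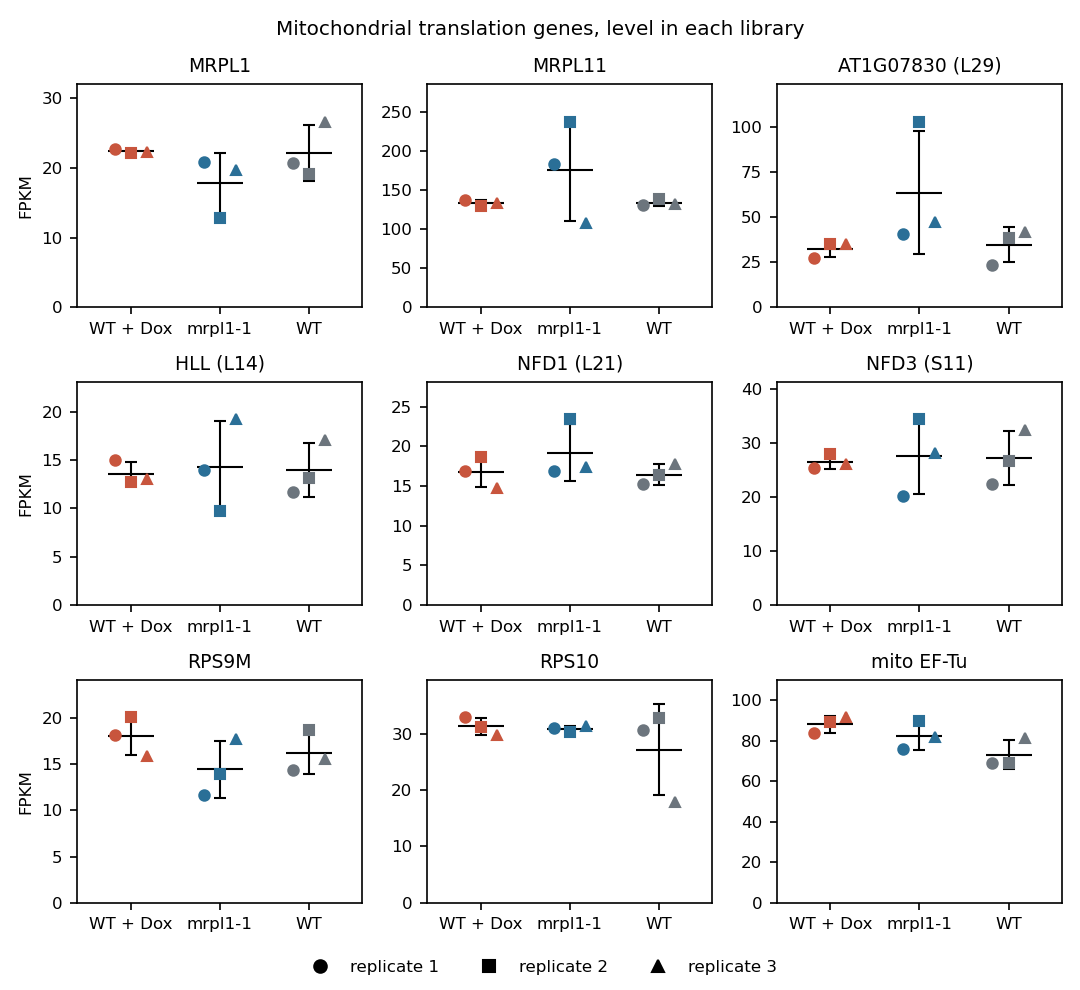
Each panel is 1 gene, with FPKM on the vertical axis from 0 and the groups on the horizontal axis; points are libraries, lines are means and bars are SD (n = 3). WT + Dox is the DOX group. The EF-Tu panel shows DOX at 83.5 to 91.5 FPKM, above WT at 68.8 to 81.3 FPKM, and mrpl1-1 replicate 2 is the lowest library for MRPL1 and HLL and the highest for MRPL11, AT1G07830, NFD1 and NFD3.

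Of the 9 genes, 0 passed a limma adjusted p of 0.05 in any comparison. All genes tested gave 35 calls (0.184%) for DOX against WT, 7 (0.0369%) for mrpl1-1 against WT and 70 (0.366%) for DOX against mrpl1-1, so the background of calls was itself low. At an unadjusted p under 0.05 the counts were 1 of 9 for DOX against WT, where 8.49% of all genes passed, 0 of 9 for mrpl1-1 against WT (4.46%) and 1 of 9 for DOX against mrpl1-1 (11.2%). The median log2 fold change of the 9 genes was 0.02 for DOX over WT, 0.17 for mrpl1-1 over WT and -0.02 for DOX over mrpl1-1, beside 0.00, -0.00 and 0.01 over all genes. No gene had groups without overlap in mrpl1-1 against WT, where 10.1% of all genes did. Both comparisons with WT use the same WT libraries, so their values for a gene are not independent.

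**Figure D3:**
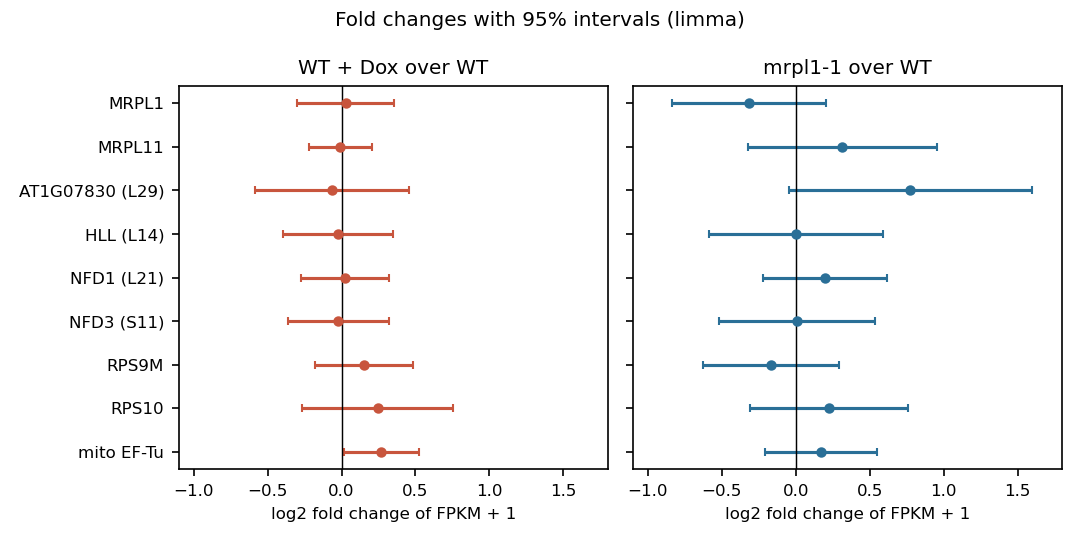
Log2 fold changes of FPKM + 1 from limma for the 9 genes, with 95% intervals as bars; the left panel is DOX (WT + Dox) over WT and the right panel mrpl1-1 over WT. The intervals include 0 except that of EF-Tu with the drug, and the mutant intervals are wider.

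Set against each other, the drug and mutant libraries did not overlap in AT1G07830 and MRPL1, and overlapped in the other 7 genes. AT1G07830 averaged 32.3 ± 4.39 FPKM in DOX and 63.5 ± 34.1 FPKM in mrpl1-1 (SD, n = 3 each), and every DOX library lay below every mutant library (log2 fold change -0.84, SE 0.33, unadjusted p 0.0273, limma adjusted p = 0.379). MRPL1 averaged 22.4 ± 0.334 FPKM in DOX and 17.8 ± 4.35 FPKM in mrpl1-1, and every DOX library lay above every mutant library (0.34, SE 0.19, limma adjusted p = 0.542). Groups without overlap made up 19.0% of all genes here, against these 2 of 9. Neither difference passed the test. Over the omissions of single libraries the MRPL1 difference ran from 0.14 to 0.47 and that of AT1G07830 from -1.09 to -0.44.

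Per length, the genes spanned a wide range. Mean FPKM over the 9 libraries was 148 for MRPL11, 81.2 for EF-Tu, 43.4 for AT1G07830, 29.8 for RPS10, 27.0 for NFD3, 20.8 for MRPL1, 17.5 for NFD1, 16.2 for RPS9M and 13.9 for HLL. MRPL11 lay above EF-Tu in 9 of 9 libraries and their ranges did not touch, whereas the ranges of all other neighbours in this order overlapped. NFD1 and RPS9M were the least separated, with NFD1 higher in 4 of 9 libraries. The order was the same in DOX, mrpl1-1 and WT for the top 5 genes and for HLL at the bottom. AT1G07830 varied most over the libraries, by a coefficient of variation of 53.8%, against a median of 16.3% for genes of similar level, and EF-Tu varied least, at 10.5% against 17.3%.

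The genes did not move as a block from library to library. Of their 36 pairwise Pearson correlations of log2(FPKM + 1) over the 9 libraries, 17 were positive, with a median of -0.04 and a range of -0.75 to 0.85, as a description of libraries that share depth and length trends. The 5 genes whose pattern was most like that of MRPL1, among 13920 genes averaging 5 FPKM or more, were POLGAMMA2 (r = 0.98), AT4G03260, AT1G56140, AT4G31570 and AT1G10410. POLGAMMA2, annotated as polymerase gamma 2 and known as a DNA polymerase of organelles, had 16.6, 14.3 and 15.4 FPKM in DOX, 13.6, 8.48 and 12.8 FPKM in mrpl1-1, and 14.3, 13.2 and 18.5 FPKM in WT. It was lowest in mrpl1-1 replicate 2 and highest in WT replicate 3, as MRPL1 was. All 5 have transcripts of 2297 to 8867 nt, against a median of 1708 nt for the genes compared, and the length trend of mrpl1-1 replicate 2 is given above. Its part in this likeness was not tested.

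The wider machinery was followed in lists of genes beside the 9. Of 36 tested genes of the large subunit, out of 37 listed, 0 passed an adjusted p of 0.05 for DOX against WT, and the median log2 fold change was -0.01. Its lowest p belonged to AT5G18790, an L33 family gene, which had 19.5, 21.2 and 18.8 FPKM in DOX, 25.9, 45.2 and 37.7 FPKM in mrpl1-1, and 32.1, 39.2 and 42.3 FPKM in WT. The DOX libraries lay below all others. Mean levels were 19.8 ± 1.24 FPKM in DOX and 37.9 ± 5.26 FPKM in WT (SD, n = 3 each), with a log2 fold change of -0.89 (SE 0.13, limma adjusted p = 0.0725), which passed only when libraries were weighted by quality (limma adjusted p = 0.0268). Part of its sequence is shared, since 12.0% of the 30-base words of its transcript occur elsewhere in the genome, so reads may be split with a copy. The higher gene with the lowest p was AT1G08845, an L18p/L5e family gene, with a log2 fold change of 0.40 (SE 0.17, limma adjusted p = 0.586).

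For mrpl1-1 against WT the large-subunit list again had 0 calls among 36 genes, with a median of 0.13. The genes with the lowest p were AT5G09770, an L17 family gene, at 0.60 (SE 0.25, limma adjusted p = 0.931), and AT2G16930, an L27 family gene, at -0.47 (SE 0.23, limma adjusted p = 0.931). Of the 30-base words of AT2G16930, 10.8% occur elsewhere. Of 17 small-subunit genes 0 passed in either comparison, with medians of 0.07 for DOX over WT and 0.12 for mrpl1-1 over WT. RPS2, the S2 protein of the small subunit, had the lowest p among higher genes in both. It averaged 45.6 ± 3.62 FPKM in DOX, 47.8 ± 15.2 FPKM in mrpl1-1 and 33.7 ± 7.87 FPKM in WT (SD, n = 3 each). Its log2 fold change was 0.45 (SE 0.18, limma adjusted p = 0.569) for DOX over WT and 0.48 (SE 0.27, limma adjusted p = 0.931) for mrpl1-1 over WT. Of its 9 values the highest was mrpl1-1 replicate 2, at 64.9 FPKM, and the lowest WT replicate 3, at 24.6 FPKM. Without WT replicate 3 the value for DOX over WT was 0.25, and without both libraries that for mrpl1-1 over WT was 0.03. The lower genes with the lowest p were AT1G77750, an S13/S18 family gene, at -0.33 with the drug, and AT3G26360, an S21 family gene, at -0.14 in the mutant.

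The translation factors beside EF-Tu had positive values with the drug, as EF-Tu did, and none passed the test. All 8 of 8 factor genes had a positive log2 fold change for DOX over WT, with a median of 0.18, and 0 of 8 passed an adjusted p of 0.05. The share of all genes with a positive value was not counted. At an unadjusted p under 0.05, 1 of 8 passed, where 8.49% of all genes did. The list holds elongation factors Ts and G, initiation factors and release factors. The lowest p was that of AT1G45332, an elongation factor G gene, at 0.39 (SE 0.12, unadjusted p 0.0166, limma adjusted p = 0.485). Elongation factor G moves the ribosome along the mRNA by a codon. Another elongation factor G gene, AT2G45030, is nearly identical over part of its length, with 28.5% and 32.8% of the 30-base words of AT1G45332 and AT2G45030 found elsewhere, so the split of reads between them is uncertain. For that reason these genes are not fully separate within the count of 8. Summed, they had 42.1, 40.7 and 45.4 FPKM in DOX, 37.8, 34.3 and 35.7 FPKM in mrpl1-1, and 31.3, 32.8 and 37.3 FPKM in WT. Every DOX library lay above every other library, with a log2 difference from WT of 0.34 (exact two-sided permutation test, p = 0.1, the smallest possible). Among single genes, 8.51% had every DOX library above every WT library, and 16.0% had no overlap in either direction. The share over sums of genes was not computed. For mrpl1-1 over WT the factor list had a median of 0.03, with AT2G45030 at 0.12 and the release factor gene AT1G56350 at -0.08. The listed factor genes have a median transcript length of 2328 nt, against 1053 nt for the large-subunit list and 1058 nt for the small-subunit list. The part of the length trend of the DOX libraries in these positive values was not tested.

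There were 10 loci of the mitochondrial genome listed as ribosomal, but the annotation used here does not name them, so they are given by ID. Of these, 5 passed the filter, and ATMG00210, ATMG00290 and ATMG01270 were listed at 0 in all 9 libraries, as was ATMG00980 in 8 of 9, in RNA selected for polyA tails. For DOX over WT the 5 had a median of 0.00, with ATMG00080 at 0.40 and ATMG01380 at -1.04 (SE 0.83), and 0 passed an adjusted p of 0.05. Leaving out single libraries moved ATMG00080 between 0.19 (without WT replicate 2) and 0.59 (without WT replicate 3), and ATMG01380 between -1.89 (without DOX replicate 1) and -0.20 (without DOX replicate 3). For mrpl1-1 over WT their median was 0.83, with 3 of 5 at an unadjusted p under 0.05, where 2.83% of all genes passed in that direction, and 0 at an adjusted p of 0.05. These 3 were ATMG00090, ATMG01390 and ATMG00080, the last at 0.996 (SE 0.30, limma adjusted p = 0.931). Whether they vary independently was not tested, and the share over other mitochondrion-encoded genes was not computed. Leaving out organelle-encoded genes shifted the median of all genes by -0.11 in this comparison. ATMG00090 had 2.96, 3.67 and 3.22 FPKM in DOX, 7.35, 9.15 and 5.41 FPKM in mrpl1-1, and 4.11, 2.73 and 3.94 FPKM in WT. Every mutant library lay above every DOX and WT library, with a log2 fold change over WT of 0.83 (SE 0.24, unadjusted p 0.00824, limma adjusted p = 0.931). ATMG01390 had 398, 342 and 365 FPKM in DOX, 912, 939 and 412 FPKM in mrpl1-1, and 316, 416 and 375 FPKM in WT. A pair of mutant libraries lay more than 2-fold above the WT range and the third within it. How much non-polyadenylated RNA each library held was not measured, so its part in these values was not tested.

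**Figure D4:**
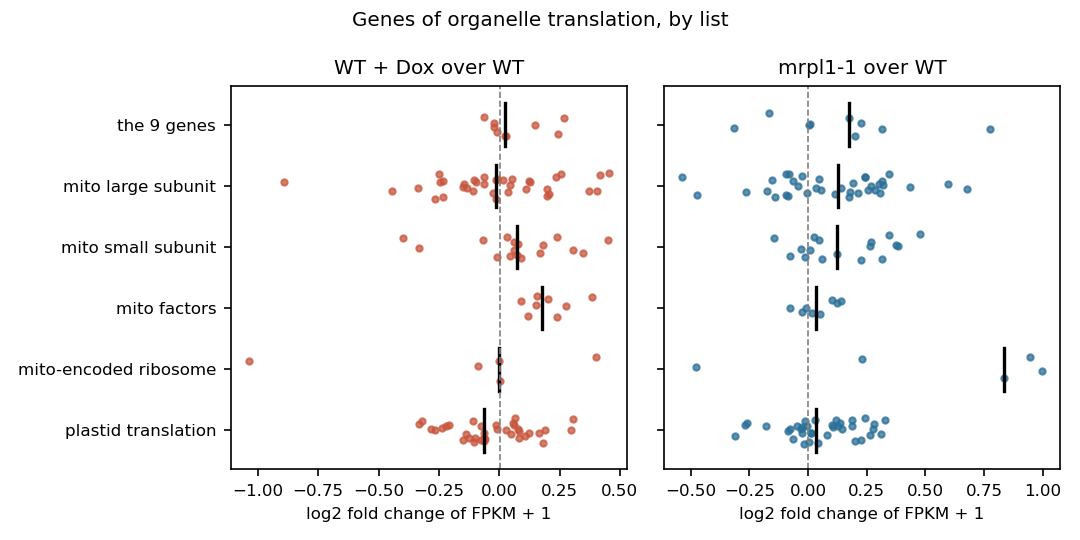
Each point is a gene, placed by its limma log2 fold change of FPKM + 1 on the horizontal axis, for DOX (WT + Dox) over WT at left and mrpl1-1 over WT at right; rows are the gene lists and black bars their medians. Medians lie between -0.06 and 0.18 except the mitochondrion-encoded list in the mutant, at 0.83 over 5 loci, and AT5G18790 is the large-subunit point at -0.89.

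The chloroplast has its own bacterial-type ribosomes, and the plastid genes were expressed above their mitochondrial counterparts. In each of the 9 libraries the plastid counterpart had the higher FPKM in all 7 pairs. The plastid L1 gene EMB3126 stood 11.9 to 25.4-fold above MRPL1, and the plastid EF-Tu gene RABE1b 5.59 to 9.78-fold above mitochondrial EF-Tu. The plastid L11 gene PRPL11 stood 1.40 to 3.04-fold above MRPL11, the narrowest of these gaps. AT5G46160, a mitochondrial paralog of HLL, stood 1.72 to 2.71-fold above it.

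Ratios of a mitochondrial gene to its plastid counterpart within a library were separated between groups in 3 cases. The ratio of MRPL11 to PRPL11 was 0.329, 0.369 and 0.363 in DOX, 0.499, 0.714 and 0.368 in mrpl1-1, and 0.386, 0.411 and 0.526 in WT. The DOX ratios lay below all WT ratios (log2 difference -0.31), while the mutant ratios overlapped WT. In the fit of single genes PRPL11 was at 0.30 for DOX over WT (SE 0.15, limma adjusted p = 0.641, no overlap) and MRPL11 at -0.01. The ratio of RPS10 to its plastid counterpart AT3G13120 lay above WT in all DOX libraries (0.13). The margin was thin, with 0.0916 in DOX replicate 3 and 0.0912 in WT replicate 2. The ratio of AT1G07830 to AT5G65220, the plastid L29 gene, lay above WT in all mutant libraries (0.84). Each of these 3 gave p = 0.1 in an exact two-sided permutation test, the smallest possible with 3 libraries against 3. They were among 16 such tests, those of HLL against its paralog included, and none can pass a correction over them. Among single genes, groups without overlap made up 16.0% for DOX against WT and 10.1% for mrpl1-1 against WT. The share over all possible ratios was not computed, so these 3 cases are a description only.

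Of 36 genes of plastid translation, 0 passed for DOX against WT, with a median of -0.06, and 0 passed for mrpl1-1 against WT, with a median of 0.03. The plastid elongation factor Ts gene emb2726 had the lowest p among higher genes with the drug, at 0.31 (SE 0.13, limma adjusted p = 0.586), and averaged 172 ± 10.7 FPKM in DOX, 133 ± 9.91 FPKM in mrpl1-1 and 140 ± 18.8 FPKM in WT (SD, n = 3 each). GHS1, the plastid S21 gene, had the lowest p among lower genes in both comparisons, at -0.33 (SE 0.10, limma adjusted p = 0.465) with the drug and -0.31 (SE 0.20, limma adjusted p = 0.931) in the mutant. Of its 30-base words 14.8% occur elsewhere in the genome. It averaged 214 ± 15.7 FPKM in DOX, 219 ± 39.1 FPKM in mrpl1-1 and 269 ± 8.09 FPKM in WT (SD, n = 3 each). The L34 gene AT1G29070 had the lowest p among higher plastid genes in the mutant, at 0.31 (SE 0.23, limma adjusted p = 0.931).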

How the data were processed

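PolyA RNA of 9 seedling libraries was sequenced on the Ion Torrent platform, per the labels' protocols. The authors deposited FPKM in 2 tables, 1 with the DOX and WT libraries and 1 with the mrpl1-1 and WT libraries, and all 12 columns were matched to samples by name. FastQC 0.10.1, the build TAIR10 and Cufflinks 2.2.1 are named, without their role, per the submitters' processing notes. Which aligner was used is not given in those sources. The WT columns of the mutant table equal those of the other table times 0.94058 (median), so each comparison with WT was fitted within its own table. Levels printed in the text, and the comparison of DOX with mrpl1-1, use mrpl1-1 values divided by that factor.

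Genes averaging 1 FPKM or more were tested as log2(FPKM + 1) with limma 3.58.1 in R 4.3.3 (trend, two-sided, Benjamini-Hochberg over all genes tested, 19073, 18994 and 19105 in turn for DOX against WT, mrpl1-1 against WT and DOX against mrpl1-1). The script was also run on simulated data with independent noise for each gene. Those data held no length trend and no libraries that stood apart. That run therefore does not show how the fit behaves on these libraries. Fold changes understate those of low genes. Ratios within a library were tested by exact permutation. Depth was estimated from the steps of low values, where 67.5% to 71.2% of ratios between libraries were ratios of small whole numbers within 0.005 on the log2 scale. These are too few for a count test.

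The 9 genes and all lists were chosen with earlier results of these data known. Beside the 9 genes, the text names, per list and comparison with WT, the higher and the lower gene with the smallest p, the plastid counterparts, and the 5 genes most correlated with MRPL1. Other genes, such as ATMG01390, were chosen after their values were seen. The large-subunit list includes AT3G17465, which the annotation calls a plastid L3. RefSeq TAIR10.1 matched 32810 of 33557 loci, and genes of similar length or level are those near the gene's own value. Limma p-values set the difference of group means against the spread between libraries. Permutation p-values rank the difference among all arrangements of the libraries. Which plants or plates that spread covers is not stated.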

Additional observations from a re-analysis of the deposited data

How the results depend on the processing

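Under the 50 alternative fits of the 3 comparisons (pseudocount, filter on low values, scaling, array weights, replicate block, omitted libraries), 0 of the 9 genes passed an adjusted p of 0.05, and the lowest limma adjusted p of any of them was 0.0831 (MRPL11, DOX over mrpl1-1). Of 808 alternative values, 746 kept their direction and side of the threshold and 61 changed sign. The cause of these was not tested. The following are log2 differences. Leaving out both libraries that stood apart, an alternative chosen after seeing the data, gave 0.029 for MRPL1 in mrpl1-1 over WT, and there NFD3 -0.030, RPS10 -0.026 and AT1G56350 0.26; in DOX over mrpl1-1 NFD3 gave 0.14. With organelle-encoded genes left out, which shifts the median of all genes by 0.06 for DOX over WT, -0.11 for mrpl1-1 over WT and 0.17 for DOX over mrpl1-1, DOX over WT gave MRPL11 0.064, AT1G07830 0.0056, HLL 0.045 and NFD3 0.049. There mrpl1-1 over WT gave HLL -0.10 and NFD3 -0.11, and DOX over mrpl1-1 gave HLL 0.15, NFD1 0.0072 and NFD3 0.16. With quantile normalization DOX over WT gave MRPL11 0.090 and NFD3 0.0031, mrpl1-1 over WT gave NFD3 -0.025 and DOX over mrpl1-1 gave NFD3 0.028. With array weights DOX over WT gave AT1G07830 0.076, HLL 0.096 and NFD3 0.096, mrpl1-1 over WT gave NFD3 -0.021 and AT1G56350 0.17, and DOX over mrpl1-1 gave NFD3 0.13. A pseudocount of 0.1 gave HLL -9.3e-05 in mrpl1-1 over WT. The MRPL1 ratio of DOX to WT became 0.048 against the other 4 large-subunit genes. Leaving out single libraries changed a sign in DOX over WT for MRPL1 (-0.067 to 0.16), its ratio (-0.18 to 0.064), MRPL11 (-0.029 to 0.017), AT1G07830 (-0.31 to 0.087), HLL (-0.13 to 0.12), NFD1 (-0.048 to 0.11), NFD3 (-0.15 to 0.11) and RPS10 (-0.021 to 0.40). It did so in mrpl1-1 over WT for HLL (-0.22 to 0.23), NFD3 (-0.16 to 0.21), RPS10 (-0.038 to 0.38), AT1G56350 (-0.25 to 0.14), AT3G26360 (-0.33 to 0.038) and ATMG01380 (-0.95 to 0.0047), and in DOX over mrpl1-1 for HLL (-0.25 to 0.20), NFD3 (-0.23 to 0.14) and RPS10 (-0.019 to 0.051). EF-Tu in DOX over WT stayed between 0.23 and 0.35, and MRPL1 in mrpl1-1 over WT between -0.44 and -0.11, on leaving out single libraries.

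Calls over all genes moved more, from 7 to 126 for DOX against WT, 2 to 18 for mrpl1-1 against WT and 17 to 197 for DOX against mrpl1-1. Replicate numbers did not pair the libraries (correlations of deviations for same-numbered libraries -0.03, 0.08 and 0.06 for DOX and WT, and -0.08, 0.03 and -0.07 for mrpl1-1 and WT). With the replicate block there were 7 calls, against 35 without it, for DOX against WT, 6 against 7 for mrpl1-1 against WT and 42 against 70 for DOX against mrpl1-1, with 0 among the 9 genes; how many genes were shared was not counted. Depth limits the thinner genes most, HLL at an estimated 39 reads in its lowest library.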

Other observations

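Set directly against the mutant, the lists around the 9 genes had these values, with 0 genes passing a limma adjusted p of 0.05 in any list. For DOX over mrpl1-1 the 8 translation factors were all positive, with a median log2 fold change of 0.15. In the large-subunit list 27 of 36 tested genes were negative, with a median of -0.12, and in the plastid list 27 of 36 were negative, with a median of -0.11. The 5 tested mitochondrion-encoded loci were all negative, with a median of -0.60, and 3 of them had groups without overlap, where 19.0% of all genes did in either direction. Whether these loci vary independently was not tested, and the share over other mitochondrion-encoded genes was not computed. The median over all genes was 0.01, and the share of all genes with a negative value was not counted. Median transcript lengths are 1053 nt in the large-subunit list, 1058 nt in the plastid list and 2328 nt in the factor list. The part of the length trends of the DOX libraries and mrpl1-1 replicate 2 in these values was not tested. These values share the DOX and the mutant libraries with those of the report.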
